A study of Mus musculus with 16 samples.

Results

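The 8 genes described here encode killer cell lectin-like receptors: Klrd1, Klrc1, Klrc2, Klrk1, Klre1, Klrb1c, Klrg1 and Klra7. They were taken by symbol from the 55335 genes of the count table, all 8 were in it, and all 8 passed the filter on low counts that left 15197 genes for testing. The libraries came from CD8 T cells of C57BL/6 mouse spleen, either lacking the transcription factor Batf3 (Batf3-/-, called ko here) or wild type (wt). All cells, of both genotypes, were cultured with IL-15 at 50 ng/ml on plate-bound antibodies to CD3e and CD28 at 1 µg/ml each, so that no group was left unstimulated. The groups were ko and wt cells at 72 h and ko and wt cells at 48 h, with 4 libraries each and 16 in all. Per the series' own description the 4 are technical replicates, which means that a p-value here reflects variation among such libraries, with mice and cultures not compared.

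These receptors belong to the C-type lectin superfamily and are best known from natural killer (NK) cells, but CD8 T cells acquire several of them after activation. CD94, the product of Klrd1, pairs with NKG2A (Klrc1), which carries inhibitory motifs, or with NKG2C (Klrc2), which signals through an adaptor, and both pairs bind the non-classical MHC molecule Qa-1. NKG2D (Klrk1) is an activating receptor that signals through the adaptor DAP10 and recognises stress-induced ligands of the Rae1, H60 and MULT1 groups. KLRE1 (Klre1) pairs with KLRI proteins. NK1.1 (Klrb1c) is an activating receptor used as an NK cell marker in C57BL/6 mice, KLRG1 (Klrg1) is an inhibitory receptor for cadherins and a marker of effector CD8 T cells, and Ly49G (Klra7) is an inhibitory receptor for classical MHC class I.

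Library totals ran from 29375818 to 39241169 counts. An undetected gene could still have up to 3 counts, which came to 0.0765 to 0.102 CPM (a count divided by the library's total and scaled to 1 common size) and covers counting error only. Batf3 itself lay between 0.0585 and 0.189 CPM in ko and between 75.8 and 87.7 CPM in wt libraries at 48 h. The 72 h level lay between 0.0 and 0.366 CPM in ko and between 28.7 and 34.2 CPM in wt libraries. Each library thus matched its genotype label in that gene. Over 9191 expressed genes, ko 48 h replicate 4 and wt 72 h replicate 4 stood farthest from the rest of their groups (root mean square deviation 0.234 and 0.218 on the log2 scale, against 0.109 to 0.163 in the other 14 libraries). Some of the results below, not all, are also given without these libraries.

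All 8 genes lie on chromosome 6 (GRCm38, GENCODE M21). Klrg1 is at 122270596 to 122282882, on the minus strand. The other 7 lie in the NK gene complex, the cluster that holds most mouse genes of this kind: Klrb1c (128778485 to 128789215, minus), Klre1 (129577905 to 129585827, plus), Klrd1 (129591782 to 129598775, plus), Klrk1 (129610323 to 129623864, minus), Klrc2 (129647496 to 129660689, minus), Klrc1 (129666015 to 129678973, minus) and Klra7 (130218605 to 130233322, minus). Batf3 belongs to the AP-1 group of basic leucine zipper factors, and RUNX and T-box factors act in cytotoxic lymphocytes, so start site windows were searched for one motif of each. RefSeq windows of GRCm38.p6 from 250 bases before to 50 after the start were held for 6 of the genes, 9 windows in all, and 1 window with a motif is shown for each of 5 genes, 5′ to 3′ on the gene's strand, with each motif in capitals.
Klrk1 chr6:129623815-129624114 (-): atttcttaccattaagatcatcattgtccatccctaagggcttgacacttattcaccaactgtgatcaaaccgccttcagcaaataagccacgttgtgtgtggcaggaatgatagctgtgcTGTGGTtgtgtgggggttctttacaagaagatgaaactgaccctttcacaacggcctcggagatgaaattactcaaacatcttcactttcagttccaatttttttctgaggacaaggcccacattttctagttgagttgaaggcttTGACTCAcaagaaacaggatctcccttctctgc
Klrc2 chr6:129660547-129660846 (-): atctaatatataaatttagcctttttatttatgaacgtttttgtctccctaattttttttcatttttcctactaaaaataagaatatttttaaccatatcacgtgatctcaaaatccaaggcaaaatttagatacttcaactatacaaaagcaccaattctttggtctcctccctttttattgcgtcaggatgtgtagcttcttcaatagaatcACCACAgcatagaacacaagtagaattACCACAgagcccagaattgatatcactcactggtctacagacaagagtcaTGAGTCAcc
Klrc1 chr6:129678924-129679223 (-): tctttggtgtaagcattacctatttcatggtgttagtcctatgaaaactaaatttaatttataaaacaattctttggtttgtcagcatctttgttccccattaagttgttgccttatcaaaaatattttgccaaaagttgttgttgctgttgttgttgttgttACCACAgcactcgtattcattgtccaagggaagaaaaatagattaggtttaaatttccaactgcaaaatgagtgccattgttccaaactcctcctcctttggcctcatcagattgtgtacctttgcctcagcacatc
Klre1 chr6:129577963-129578262 (+): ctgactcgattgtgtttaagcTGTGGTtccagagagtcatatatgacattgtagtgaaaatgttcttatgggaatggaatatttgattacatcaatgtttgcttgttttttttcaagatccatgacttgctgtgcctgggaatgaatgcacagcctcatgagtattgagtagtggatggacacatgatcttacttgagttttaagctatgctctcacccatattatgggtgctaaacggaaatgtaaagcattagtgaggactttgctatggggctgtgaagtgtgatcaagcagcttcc
Klrb1c chr6:128788592-128788891 (-): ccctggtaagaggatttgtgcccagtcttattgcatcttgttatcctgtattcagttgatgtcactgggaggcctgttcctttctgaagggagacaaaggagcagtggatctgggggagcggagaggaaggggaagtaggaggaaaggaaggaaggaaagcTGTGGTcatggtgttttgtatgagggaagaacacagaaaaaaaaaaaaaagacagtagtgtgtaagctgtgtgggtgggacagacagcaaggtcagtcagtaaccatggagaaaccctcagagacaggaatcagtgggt

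The AP-1 motif TGANTCA occurred in the Klrk1 window, beginning 17 bases after the start, and in both Klrc2 windows, beginning 41 bases after the start in the one shown and 1 base after it in the other. That made 3 of 9 windows, against 7.81% of 32851 windows over all genes. The 2 Klrc2 windows overlap and hold the same AP-1 site and the same 2 RUNX sites, so these are counted once for each window; by gene, 2 of 6 held the AP-1 motif and 5 of 6 the RUNX motif. The RUNX motif TGTGGT was found in 6 of 9 windows, against 16.8% of all windows. Where it lies on the opposite strand it reads ACCACA in the lines above. It began 129 bases before the start in Klrk1, 87 in Klrc1, 229 in Klre1 and 89 in Klrb1c, and it occurred at 36 and 9 bases before the start in the Klrc2 window shown. The T-box motif GGTGTGA was in none of the 9 windows and in 3.98% of all windows, and the 2 Klra7 windows held none of the 3 motifs. Both strands were searched, the motifs did not overlap one another in these windows, and a match is only a description of the letters.

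Similar sequence limits how finely some of these genes can be read. Of the 75-base windows of Klrc1 transcripts, 25% also occurred in another gene's transcripts, 24.7% in those of Klrc2, and for Klrc2 the share with any other gene was 11.3%. The stretch below is the longest that the coding sequences of Klrc1 and Klrc2 have in common, 124 bases, beginning at base 286 of 684 in Klrc1 and at base 268 of 666 in Klrc2 (GENCODE M21), and a read inside it cannot be assigned to either gene.
Klrc1 and Klrc2 shared coding stretch: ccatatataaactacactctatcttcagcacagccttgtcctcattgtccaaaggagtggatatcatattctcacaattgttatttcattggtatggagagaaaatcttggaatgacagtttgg
Klrb1c shared 13.2% of its windows with other genes, mostly with Gm44511, a model that overlaps its exons on the same strand and had 1 count over all 16 libraries. Klra7 shared 5.71%, all with the pseudogene Klra13-ps. Klrd1, Klrk1, Klre1 and Klrg1 shared no window. Values of the genes that share windows are uncertain to that extent.

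Levels of the 8 genes spanned a wide range. Per length of all annotated exons (RPKM, CPM per kilobase), Klrd1 was the most abundant in ko cells at 72 h, with 74.6 ± 9.05 RPKM (SD, n = 4), followed by Klrk1 with 33.0 ± 6.02 RPKM. Klrc1 (23.3 ± 1.04 RPKM) and Klra7 (22.3 ± 2.16 RPKM) did not differ beyond their spread. Below them stood Klre1 (5.26 ± 0.387 RPKM), Klrb1c (2.34 ± 0.255 RPKM), Klrc2 (0.553 ± 0.0927 RPKM) and Klrg1 (0.131 ± 0.0922 RPKM). In wt cells at 72 h the order of levels was alike, with 55.1 ± 13.4 RPKM for Klrd1 and 31.3 ± 4.44 RPKM for Klrk1. Klra7 (14.3 ± 2.34 RPKM) and Klrc1 (12.7 ± 2.74 RPKM) were again within each other's spread.
At 48 h, Klrd1 also had the highest level per exon length, 19.4 ± 2.9 RPKM in ko and 11.9 ± 1.17 RPKM in wt cells. Klrk1 stood level with Klrc1 at that time, at 10 ± 1.95 against 10.1 ± 1.14 RPKM in ko cells and 7.58 ± 1.03 against 7.17 ± 0.817 RPKM in wt cells. Klrc2 and Klrg1 were the lowest in every group, and at 48 h they did not differ beyond their spread in either genotype. The order depends on the length used: per length of the main transcript Klrk1 (186.9 ± 34.1 RPKM) stood above Klrd1 (106.8 ± 13.0 RPKM) in ko cells at 72 h, and Klrc2 (2.8 ± 0.469 RPKM) did not differ from Klrb1c (2.64 ± 0.288 RPKM) beyond the spread. The main Klrc1 transcript, at 684 bases, holds the coding sequence only.

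**Figure D1:**
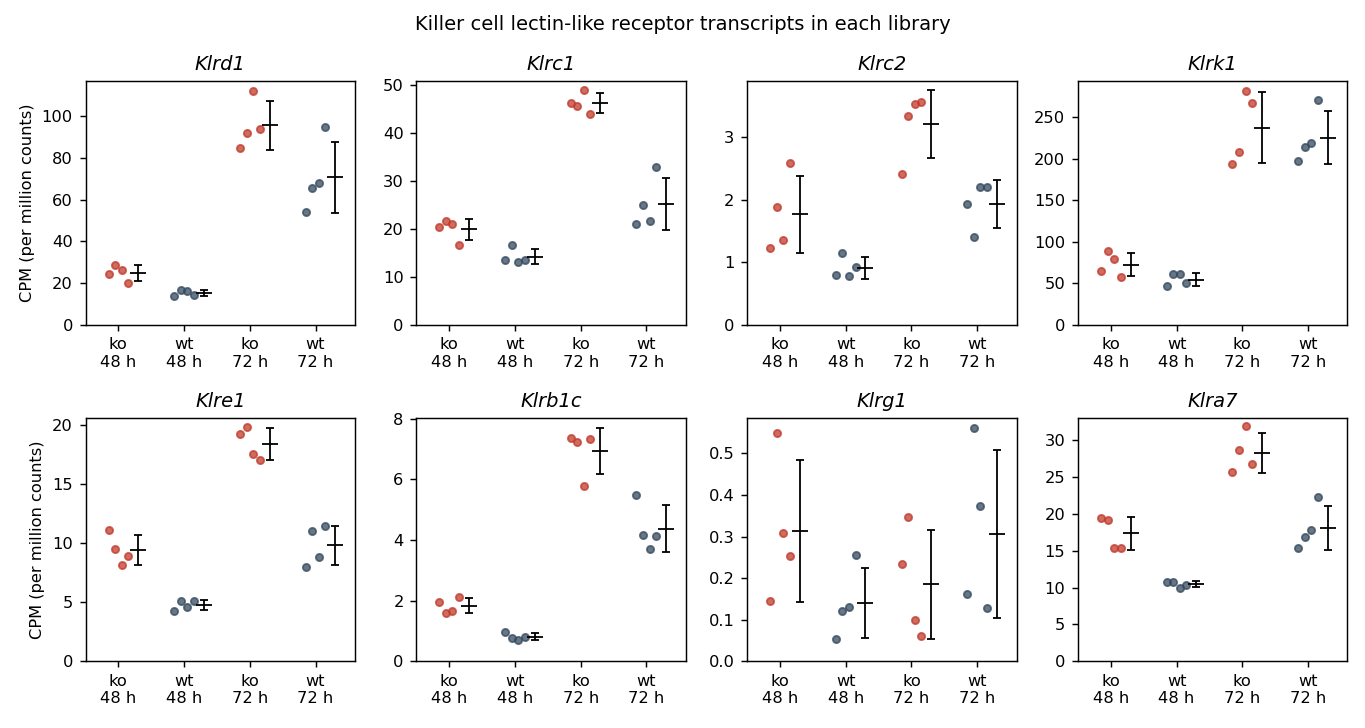
CPM of the 8 receptor genes in each of the 16 libraries (points), with the mean and SD of each group of 4 (bars), ko left of wt at each time; each panel has its own linear axis from 0. The ko points of Klrc1, Klrc2, Klre1, Klrb1c and Klra7 lie above the wt points at both times, those of Klrd1 only at 48 h, and the Klrk1 and Klrg1 points of the genotypes overlap at both. How many of all tested genes separate in this way was not counted.

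Loss of Batf3 went with higher transcript levels of 6 of the 8 receptor genes at 48 h and of the same 6 at 72 h: Klrd1, Klrc1, Klrc2, Klre1, Klrb1c and Klra7. None of the 8 was called lower at either time by edgeR, and none had an unadjusted p under 0.05 in that direction. Over all tested genes 4.41% were called higher, 2.66% lower and 7.07% either way at 48 h, and 16.9% higher, 19.5% lower and 36.4% either way at 72 h. The median log2 fold change of the 8, ko over wt, was 0.88 at 48 h and 0.78 at 72 h, beside 0.01 and -0.02 over all tested genes. The 8 were chosen with earlier results of these data known, so setting them beside all tested genes is a description and no test. How many of all tested genes separate without overlap between the genotypes was not counted. Such separation, given below for single genes, is therefore not shown to be particular to the receptors. The summed level of the 8 lay between 122.8 and 171.3 CPM in ko and between 90.1 and 112.2 CPM in wt libraries at 48 h. It lay between 379.2 and 501.3 CPM in ko and between 303.2 and 438.6 CPM in wt libraries at 72 h, where the ranges overlap. In bulk RNA, more cells that express a receptor and more RNA per cell cannot be told apart.

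Klrd1, the shared CD94 chain, had 24.4, 28.7, 26.3 and 19.9 CPM in the ko libraries at 48 h, against 13.6, 16.8, 16.1 and 14.4 CPM in wt. Every ko library stood above every wt library, and the log2 fold change was 0.75 (SE 0.16, edgeR adjusted p = 0.00845). At 72 h it had 84.6, 92.1, 111.9 and 93.7 CPM in ko, against 54.1, 65.6, 67.8 and 94.8 CPM in wt. The highest wt library, replicate 4, which stands apart from its group, lay above 3 of the 4 ko libraries in CPM, so the groups overlap on that scale. Its log2 fold change at 72 h was 0.56 (SE 0.15, edgeR adjusted p = 0.00628). Without both libraries that stand apart the values were 0.85 (SE 0.10) at 48 h and 0.75 (SE 0.09) at 72 h. Without ko 48 h replicate 2, the highest ko library, the call at 48 h was lost (log2 fold change 0.65, edgeR adjusted p = 0.0575).

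Klrc1, which encodes the inhibitory partner NKG2A, had 20.4, 21.7, 21 and 16.7 CPM in ko cells at 48 h, against 13.5, 16.6, 13.2 and 13.6 CPM in wt cells. The lowest ko value and the highest wt value lay close together but the groups did not overlap, and the log2 fold change was 0.53 (SE 0.13, edgeR adjusted p = 0.0134). At 72 h, values of 46.4, 45.7, 49.1 and 44.1 CPM in ko stood against 21.1, 25.1, 21.7 and 32.9 CPM in wt cells. All ko libraries were above the highest wt library, and the log2 fold change was 1.00 (SE 0.12, edgeR adjusted p = 2.25e-06). The call at 48 h was lost without ko 48 h replicate 2 (0.46, edgeR adjusted p = 0.0728) and without wt 48 h replicate 1 (0.50, edgeR adjusted p = 0.0539), while at 72 h leaving out any one library kept it.

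Klrc2, the activating partner NKG2C, was read at a far lower level, from 29 to 118 counts per library. It had 1.23, 1.88, 1.36 and 2.59 CPM in ko cells at 48 h, against 0.789, 1.15, 0.786 and 0.917 CPM in wt cells. The groups did not overlap, with a log2 fold change of 0.98 (SE 0.24, edgeR adjusted p = 0.0143), but the call was lost without wt 48 h replicate 1 (0.91, edgeR adjusted p = 0.0576). The highest ko value, 2.59 CPM, is that of replicate 4, which stands apart. Without both libraries that stand apart the log2 fold change was 0.76 (SE 0.24, edgeR adjusted p = 0.0295). At 72 h, with 2.42, 3.34, 3.53 and 3.56 CPM in ko against 1.93, 1.4, 2.21 and 2.21 CPM in wt cells, the groups again did not overlap. By edgeR it was higher by 0.86 on the log2 scale (SE 0.22, edgeR adjusted p = 0.00347). Klrc3, the neighbouring gene for NKG2E, had 4 to 10 counts in ko and 1 to 5 counts in wt libraries at 48 h, and its log2 fold changes of 1.27 (SE 0.60) at 48 h and 1.02 (SE 0.49) at 72 h did not pass the test (edgeR adjusted p = 0.208 and 0.106).

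Klrk1, the NKG2D gene, was not called at either time. At 48 h it had 64.7, 88.2, 78.9 and 56.9 CPM in ko cells, against 46.3, 60.8, 60.6 and 50.0 CPM in wt cells. Replicates 1 to 3 of ko stood above all wt libraries and replicate 4, which stands apart, lay among them, and the log2 fold change was 0.44 (95% interval 0.10 to 0.79, edgeR adjusted p = 0.116). Without that library the value was 0.56 and was called (edgeR adjusted p = 0.041). At 72 h the libraries of the genotypes lay intermixed, with 193.4, 207.9, 281.6 and 266.7 CPM in ko against 197.0, 213.5, 218.5 and 270.8 CPM in wt cells. Here the log2 fold change was 0.20 (95% interval -0.14 to 0.54, edgeR adjusted p = 0.35). The interval reaches a difference as large as 0.54, so the data do not show equal levels. In the fit without a filter on low counts Klrk1 was called at both times, at 0.44 (edgeR adjusted p = 2.18e-07) and 0.19 (edgeR adjusted p = 0.0383).

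Klre1 showed nearly the same genotype difference at both times. It had 11.1, 9.49, 8.1 and 8.93 CPM in ko cells at 48 h, against 4.22, 5.12, 4.61 and 5.07 CPM in wt cells. At 72 h it had 19.2, 19.8, 17.5 and 17.0 CPM in ko, against 8.0, 11.0, 8.78 and 11.4 CPM in wt cells. No ko library came near a wt library of its time, and the log2 fold changes were 1.02 (SE 0.13, edgeR adjusted p = 1.65e-05) at 48 h and 1.03 (SE 0.12, edgeR adjusted p = 1.03e-06) at 72 h. Klri2, whose product pairs with KLRE1, averaged 1.15 ± 0.187 CPM in ko and 0.65 ± 0.0564 CPM in wt cells at 48 h (SD, n = 4 each). At 72 h it averaged 2.35 ± 0.268 CPM in ko and 1.43 ± 0.362 CPM in wt cells (SD, n = 4 each). Its log2 fold changes were 0.86 (SE 0.24, edgeR adjusted p = 0.0305) at 48 h and 0.83 (SE 0.22, edgeR adjusted p = 0.00397) at 72 h. The 48 h call was lost without any one of 6 of the 8 libraries of that time. The alternative partner gene Klri1 averaged 0.215 ± 0.0907 CPM in ko and 0.167 ± 0.142 CPM in wt cells at 72 h (SD, n = 4 each) and was too low to be tested.

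Klrb1c, the NK1.1 gene, had 1.96, 1.59, 1.67 and 2.11 CPM in ko cells at 48 h, against 0.98, 0.758, 0.707 and 0.79 CPM in wt cells. The groups were well separated, at 55 to 67 counts in ko and 25 to 36 counts in wt libraries, with a log2 fold change of 1.21 (SE 0.19, edgeR adjusted p = 0.000181). At 72 h, with 7.36, 7.21, 5.79 and 7.32 CPM in ko against 5.49, 4.17, 3.71 and 4.13 CPM in wt cells, the lowest ko and the highest wt library lay close together without overlapping. The difference was 0.79 on the log2 scale (SE 0.15, edgeR adjusted p = 0.000198).

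Klra7, for the inhibitory receptor Ly49G, had 19.4, 19.2, 15.3 and 15.4 CPM in ko cells at 48 h, against 10.7, 10.8, 9.9 and 10.3 CPM in wt cells. The wt libraries lay tightly together and below all ko libraries, with a log2 fold change of 0.77 (SE 0.12, edgeR adjusted p = 0.000127). At 72 h it had 25.6, 28.6, 31.9 and 26.8 CPM in ko, against 15.4, 16.8, 17.8 and 22.3 CPM in wt cells. Again the groups did not overlap, and Klra7 was higher by 0.77 on the log2 scale (SE 0.11, edgeR adjusted p = 1.32e-05). The pseudogene Klra13-ps, with which it shares windows, was higher too, by 0.76 at 48 h (SE 0.17, edgeR adjusted p = 0.00642) and 1.25 at 72 h (SE 0.15, edgeR adjusted p = 1.11e-06).

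Klrg1 was close to the limit of detection in these cells. It had 5, 19, 12 and 8 counts in the ko libraries at 48 h, against 2, 4, 5 and 10 counts in wt. At 72 h it had 8, 12, 3 and 2 counts in ko, against 5, 20, 11 and 4 counts in wt libraries. The groups overlapped at both times, and the log2 fold changes of 1.16 (95% interval -0.07 to 2.39, edgeR adjusted p = 0.257) at 48 h and -0.59 (95% interval -1.81 to 0.62, edgeR adjusted p = 0.463) at 72 h show only that a difference was not detectable at this depth.

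**Figure D2:**
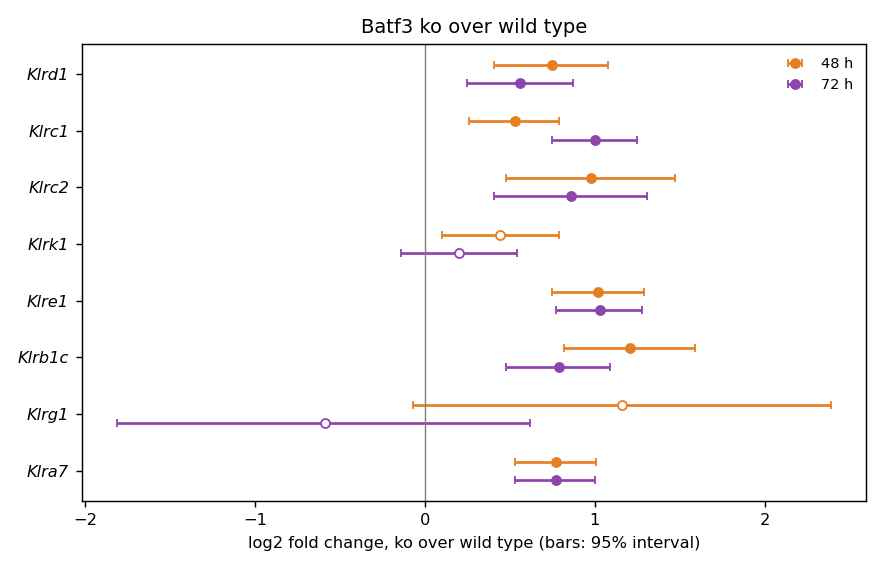
Log2 fold change of each receptor gene, ko over wt, at 48 h and 72 h (points), with 95% intervals (bars); filled points passed the edgeR test at an adjusted p of 0.05. The filled points run from 0.53 for Klrc1 at 48 h to 1.21 for Klrb1c at 48 h, the open points are those of Klrk1 and Klrg1, and the Klrg1 intervals are the widest.

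Some markers of NK cells were also called higher in ko cells. Of 6 defining markers (Ncr1, Tyrobp, Fcer1g, Klra8, Klra4 and Sh2d1b1), 1 was called higher at 48 h and 4 at 72 h, beside 4.41% and 16.9% of all tested genes. Their summed level lay between 5.35 and 5.81 CPM in ko and between 2.88 and 3.57 CPM in wt libraries at 48 h. The 72 h level lay between 9.16 and 9.79 CPM in ko and between 5.16 and 6.88 CPM in wt libraries. Fcer1g and Tyrobp made up most of these sums. In ko cells they averaged 3.5 and 0.955 CPM at 48 h, and 4.16 and 3.03 CPM at 72 h. In wt cells the means were 1.99 and 0.625 CPM at 48 h, and 3.27 and 1.36 CPM at 72 h. With a minimum count of 30 in the filter, 2 of the 6 were called higher at 72 h. None of the 6 was at 0 in any library. Ncr1, the most specific of them, had 7 to 23 counts in ko and 4 to 13 counts in wt libraries at 48 h. At 72 h it had 1 to 12 counts in ko and 5 to 12 counts in wt libraries, so that the groups overlapped at both times and it was not called at either (edgeR adjusted p = 0.479 at 48 h and 0.724 at 72 h). The defining set includes 2 Ly49 genes and 2 adaptors that CD8 T cells can also express. Of the longer list of 16 NK markers, 5 were higher at 48 h (3 without ko 48 h replicate 2), and 9 were higher and 2, Eomes and Lgals9, lower at 72 h. Its summed level was 334.4 to 338.5 CPM in ko and 296.4 to 321.0 CPM in wt libraries at 48 h. The 72 h range was 574.0 to 613.9 CPM in ko and 499.5 to 524.2 CPM in wt libraries. Nkg7 made up most of these sums, averaging 203.5 CPM in ko and 171.7 CPM in wt cells at 48 h. Its means at 72 h were 455.2 CPM in ko and 359.2 CPM in wt cells. The part of NK cells in the receptor results was not tested.

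Other marker lists were summed in the same way. Their counts of called genes stand beside 4.41% of all tested genes called higher at 48 h and 16.9% at 72 h. CD8 T cell markers summed to 2520.8 to 2678.6 CPM in ko and 2383.4 to 2469.8 CPM in wt libraries at 48 h. At 72 h the sums were 3241.7 to 3306.5 CPM in ko and 3055.9 to 3143.3 CPM in wt libraries. Of its 9 genes 2 were called higher at each time, and at 48 h this fell to 1 or 0 on leaving out single libraries (0 without ko 48 h replicate 2). Of 8 tested gamma delta and NKT markers, 1 was called higher at 72 h, a call lost on leaving out any one of 7 libraries, and the list summed to 18.1 to 22.9 CPM in ko and 18.8 to 21.4 CPM in wt libraries. B cell markers, nearly all Ighm (1 of 3 tested called higher), summed to 303.7 to 334.5 CPM in ko and 223.2 to 293.0 CPM in wt libraries at 72 h. At that time macrophage and monocyte markers, nearly all Ly6c2 (2 of 2 called higher), summed to 198.4 to 219.8 CPM in ko and 157.4 to 176.5 CPM in wt libraries. Dendritic cell markers, nearly all H2-Ab1 (1 of 5 called higher), summed to 105.4 to 122.0 CPM in ko and 69.8 to 86.9 CPM in wt libraries at 72 h. At 48 h the ranges of these lists did not overlap between the genotypes either. B cell markers then summed to 284.3 to 317.8 CPM in ko and 246.3 to 256.8 CPM in wt libraries, and Ighm was called higher (0.28, edgeR adjusted p = 0.00858). Macrophage and monocyte markers summed to 155.2 to 169.9 CPM in ko and 131.6 to 139.4 CPM in wt libraries at 48 h, and Ly6c2 was called higher (0.32, edgeR adjusted p = 0.00114). For dendritic cell markers the 48 h sums were 16.5 to 18.8 CPM in ko and 13.4 to 16.4 CPM in wt libraries, and H2-Ab1 was called higher (0.37, edgeR adjusted p = 0.0317), a call lost on leaving out any one of 6 of the 8 libraries of that time. Adgre1, Clec9a and Siglech were at 0 in all 16 libraries. CD4 T cell markers, nearly all Ctla4, ran from 1203.0 to 1437.1 CPM in ko and from 966.5 to 1448.8 CPM in wt libraries at 72 h. Of 3 tested, 1 had an unadjusted p under 0.05 and was called without wt 72 h replicate 2 or ko 72 h replicate 4. At 48 h no CD4 T cell marker and no gamma delta or NKT marker was called by edgeR, with an unadjusted p under 0.05 for 0 and 1 of them (1 gamma delta or NKT marker was called without wt 48 h replicate 2), and the ranges of both lists overlapped between the genotypes. The part of such cells in the receptor results was not tested.

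From 48 h to 72 h of culture, transcripts of 7 of the 8 receptor genes rose in both genotypes, Klrg1 being the exception. Of all tested genes 34.4% were called higher at 72 h in ko and 33.6% in wt cells, and 68% in ko and 63.6% in wt cells changed either way. The median log2 fold change of the 8, 72 h over 48 h, was 1.15 in ko and 1.07 in wt cells, beside 0.03 and 0.05 over all tested genes. At 72 h the libraries of each of the 7 lay above those of 48 h without overlap, except for Klrc2 in ko cells. There 2.42 CPM in 1 library at 72 h lay below 2.59 CPM in ko 48 h replicate 4, which stands apart from its group. How many of all tested genes separate in this way was not counted, so the separation is not shown to be particular to the receptors.

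The sizes of the rise fell into a larger and a smaller range. Klrb1c averaged 6.92 ± 0.755 CPM at 72 h against 1.83 ± 0.246 CPM at 48 h in ko cells, and 4.37 ± 0.77 CPM at 72 h against 0.809 ± 0.119 CPM at 48 h in wt cells (SD, n = 4 each). Its log2 fold changes over time were 1.98 (SE 0.16, edgeR adjusted p = 4.94e-11) in ko and 2.40 (SE 0.18, edgeR adjusted p = 1.63e-11) in wt cells. Klrd1 averaged 95.6 ± 11.6 CPM at 72 h against 24.8 ± 3.71 CPM at 48 h in ko cells, and 70.5 ± 17.2 CPM at 72 h against 15.2 ± 1.5 CPM at 48 h in wt cells (SD, n = 4 each). On the log2 scale its rise was 2.01 (SE 0.16, edgeR adjusted p = 1.21e-09) in ko and 2.19 (SE 0.16, edgeR adjusted p = 6.81e-10) in wt cells. Klrk1 averaged 237.4 ± 43.2 CPM at 72 h against 72.2 ± 14.0 CPM at 48 h in ko cells, and 225.0 ± 31.9 CPM at 72 h against 54.5 ± 7.4 CPM at 48 h in wt cells (SD, n = 4 each). The NKG2D gene thus rose by 1.78 (SE 0.17, edgeR adjusted p = 6.6e-08) in ko and 2.02 (SE 0.17, edgeR adjusted p = 2.01e-08) in wt cells on the log2 scale.

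Klrc1, Klrc2, Klre1 and Klra7 rose by 0.76 to 1.28 on the log2 scale. The NKG2A gene Klrc1 rose by 1.28 (SE 0.12, edgeR adjusted p = 3.88e-09) in ko and by 0.80 (SE 0.13, edgeR adjusted p = 7.97e-06) in wt cells. For Klre1 the rise was 1.03 (SE 0.12) in ko and 1.02 (SE 0.13) in wt cells, and for Klra7 it was 0.76 (SE 0.11) in ko and 0.77 (SE 0.12) in wt cells. Klrc2 rose by 0.94 (SE 0.22, edgeR adjusted p = 0.00054) in ko and by 1.06 (SE 0.24, edgeR adjusted p = 0.000475) in wt cells. Klrg1 had 72 h over 48 h log2 fold changes of -0.67 (95% interval -1.88 to 0.53) in ko and 1.08 (95% interval -0.16 to 2.33) in wt cells, neither called.

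**Figure D3:**
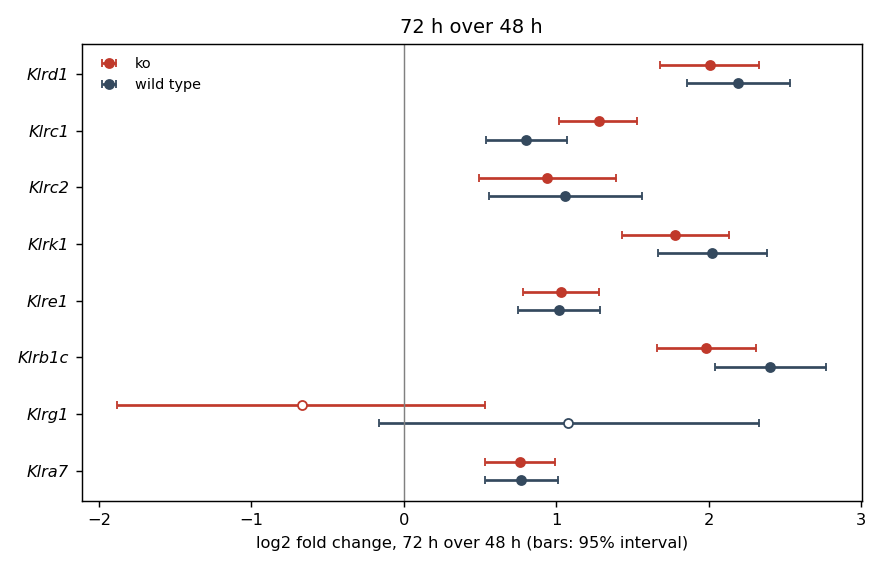
Log2 fold change of each receptor gene, 72 h over 48 h, in ko and wt cells (points), with 95% intervals (bars); filled points passed the edgeR test at an adjusted p of 0.05. Klrd1, Klrk1 and Klrb1c lie between 1.78 and 2.40, Klrc1, Klrc2, Klre1 and Klra7 between 0.76 and 1.28, and the open Klrg1 points have intervals that include 0.

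The genotype effect was not shown to differ between the times for any of the 8 genes: the interaction of genotype and time called 0 of 8 in edgeR and 0 in DESeq2, against 5.61% of all tested genes. There was an unadjusted p under 0.05 for 1 gene in each direction. Klrc1 had an interaction of 0.47 on the log2 scale (95% interval 0.11 to 0.84, edgeR adjusted p = 0.12), the genotype effect at 72 h minus that at 48 h. Without wt 72 h replicate 4 alone it was called, at 0.64 (edgeR adjusted p = 0.00629). With both outlying libraries left out it was 0.55 (edgeR adjusted p = 0.0052). Klrg1 had -1.76 (95% interval -3.49 to -0.03, edgeR adjusted p = 0.23). Klrb1c, with -0.42 (95% interval -0.91 to 0.07), Klrk1, with -0.24 (95% interval -0.73 to 0.24), and Klrd1, with -0.19 (95% interval -0.64 to 0.27), were not called. For Klrc2 (-0.12, 95% interval -0.78 to 0.55), Klre1 (0.01, 95% interval -0.37 to 0.39) and Klra7 (-0.01, 95% interval -0.34 to 0.32) the interaction lay near 0, and differences of up to the interval's ends were not detectable.

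Ratios of counts within a library do not depend on scaling and show how the receptor genes moved relative to one another. The ratio of Klrk1 to Klrc1 ran from 4.17 to 6.05 in ko and from 8.23 to 10.1 in wt libraries at 72 h, without overlap. At 48 h it ran from 3.18 to 4.06 in ko and from 3.44 to 4.6 in wt libraries, with overlap. For Klrc1 over Klrd1, the ratio was 0.438 to 0.548 in ko and 0.319 to 0.39 in wt libraries at 72 h. At 48 h it was 0.758 to 0.837 in ko and 0.819 to 0.994 in wt libraries. Counts of the inhibitory partner relative to CD94 were thus higher in ko cells at 72 h, with no overlap. At 48 h the groups overlapped and the mean leaned the other way, 0.807 ± 0.0369 in ko against 0.937 ± 0.0815 in wt libraries (SD, n = 4 each). The ratio of Klrk1 to Klrd1 was lower in ko cells at 48 h, at 2.65 to 3.08 against 3.42 to 3.77 in wt libraries, and at 72 h, at 2.26 to 2.85 against 2.86 to 3.64. Ratios of Klrc1 to Klrc2 overlapped between the genotypes at both times, as did those of Klre1 to Klri2. No test was run on the ratios, and a ratio shows unequal change without saying which gene moved.

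**Figure D4:**
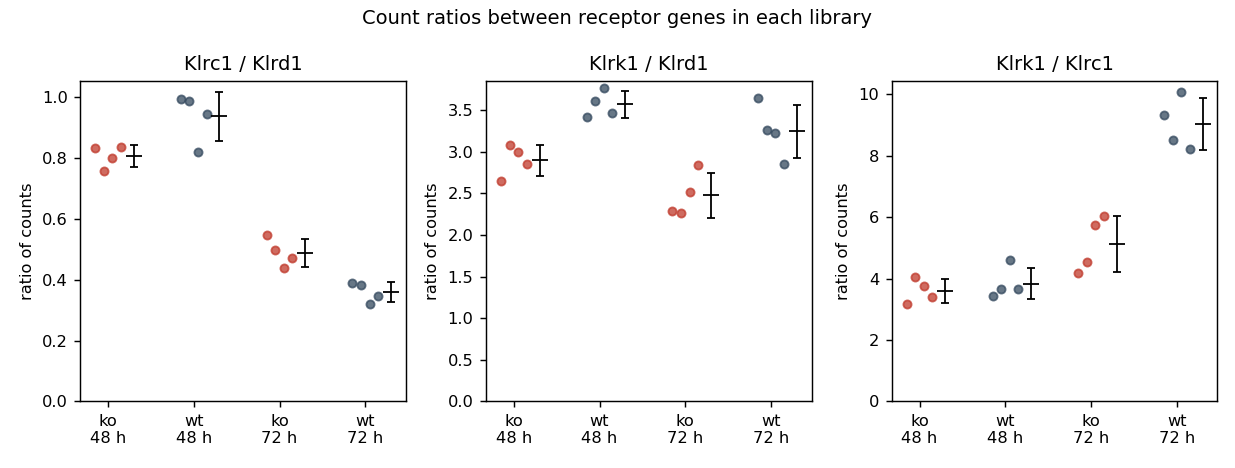
Ratios of raw counts of Klrc1 to Klrd1, Klrk1 to Klrd1 and Klrk1 to Klrc1 in each of the 16 libraries (points), with the mean and SD of each group of 4 (bars), ko left of wt at each time; axes are linear from 0. The ratio of Klrk1 to Klrc1 at 72 h lies between 4.17 and 6.05 in ko and between 8.23 and 10.1 in wt libraries.

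Across the 16 libraries the 7 genes other than Klrg1 had log2 CPM that rose and fell together, with Pearson r from 0.77 to 0.98 for their pairs, values that hold the differences between the groups and the shared scaling of each library. Over all libraries Klrd1 was closest to Klrk1 (r = 0.98) and Klrb1c (r = 0.95). Around the group means, Klrd1 was closest to Klrk1 (r = 0.89) and Klrc1 (r = 0.88), with Klra7 at 0.81, while Klrb1c ran the other way, at -0.66 with Klrk1 and -0.64 with Klrd1. Klrd1, Klrk1 and Klrc1 were highest of their group in wt 72 h replicate 4. In ko 48 h replicate 4 these genes were lowest of their group and Klrb1c was highest. Both libraries stand apart over all expressed genes, and the correlations were not computed without them. Among 9191 expressed genes the profiles most like Klrd1 were those of Plac8 (r = 0.994), Ctla2a (0.991) and Id2 (0.989), and those most like Klrk1 were Phf11b (0.995), Ms4a4b (0.992) and Dhx58 (0.991). Klrb1c was most like Lgals3 (0.99), Kremen2 (0.986) and Ltb (0.985), and Klrc1 most like Commd8, Fundc2 and Cyb5a (0.982 each). Klre1 was most like Cyb5a (0.976), Klra7 (0.975) and Rpl10a (0.972), Klra7 like Rpl34-ps1 (0.98), Rps27rt (0.978) and Chmp5 (0.977), and Klrc2 like C1qtnf6 (0.937), Coro1a (0.923) and Fbxl12 (0.91). For Klrg1 the highest values were only 0.686, with B230219D22Rik, 0.663, with Tmem154, and 0.659, with Ing1. These are descriptions over 16 libraries in 4 groups that share the differences between groups.

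Related receptor genes outside the 8 were read in the same fits. Of 22 other genes named Klr in the table, 14 were tested, of which 5 were called higher in ko cells at 48 h and 8 at 72 h, beside 4.41% and 16.9% of all tested genes. Their median log2 fold change was 0.81 at 48 h and 0.99 at 72 h, with a positive value in 13 of 14 and 14 of 14. Klra3, the Ly49C gene, averaged 6.57 ± 0.52 CPM in ko and 3.36 ± 0.598 CPM in wt cells at 48 h and 6.13 ± 0.52 CPM in ko and 3.08 ± 0.447 CPM in wt cells at 72 h (SD, n = 4 each). It was higher by 1.01 (SE 0.14, edgeR adjusted p = 6.14e-05) at 48 h and 1.12 at 72 h (SE 0.15, edgeR adjusted p = 3.85e-06). Klra1, the Ly49A gene, was higher by 0.75 (SE 0.17, edgeR adjusted p = 0.00969) at 48 h and 0.65 (SE 0.17, edgeR adjusted p = 0.00488) at 72 h. Of the 8 tested Ly49 genes besides Klra7, 3 were higher at 48 h (1 without ko 48 h replicate 1) and 4 at 72 h; Klra4 and Klra10, called at 72 h, had under 1 CPM in every library. Of the tested NKR-P1 genes related to Klrb1c, Klrb1b rose by 0.97 (SE 0.27, edgeR adjusted p = 0.0066) and Klrb1f by 1.39 (SE 0.40, edgeR adjusted p = 0.00864) in ko cells at 72 h. Ly49 genes resemble one another closely, so their counts are uncertain.

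Between Klrb1c and Klra7, a stretch of 1.45 megabases with 76 genes in the table, 28 genes were tested. At 48 h, 9 of the 28 were called higher, namely 6 of the 7 described receptors, 2 of 9 other Klr genes and 1 of 12 genes not named Klr, which was Clec2d. At 72 h, 15 were called higher and BC035044 lower: again 6 of 7, 4 of 9 other Klr genes, and 5 of 12 genes not named Klr. Over all tested genes 4.41% were called higher and 2.66% lower at 48 h, and 16.9% higher and 19.5% lower at 72 h. Clec2d, which encodes a ligand of an NKR-P1 receptor, averaged 25.3 ± 2.69 CPM in ko and 18.7 ± 2.14 CPM in wt cells at 48 h (SD, n = 4 each). Its log2 fold change of 0.47 (SE 0.12, edgeR adjusted p = 0.0211) was no longer called without ko 48 h replicate 2, wt 48 h replicate 1 or wt 48 h replicate 2. Cd69, the early activation marker within the same stretch, was higher by 0.41 at 72 h (SE 0.10, edgeR adjusted p = 0.00347) and had 0.15 (SE 0.10, edgeR adjusted p = 0.394) at 48 h. Gabarapl1, an autophagy gene that precedes Klre1 among the tested genes, was higher by 0.34 at 72 h (SE 0.06, edgeR adjusted p = 0.000175).

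**Figure D5:**
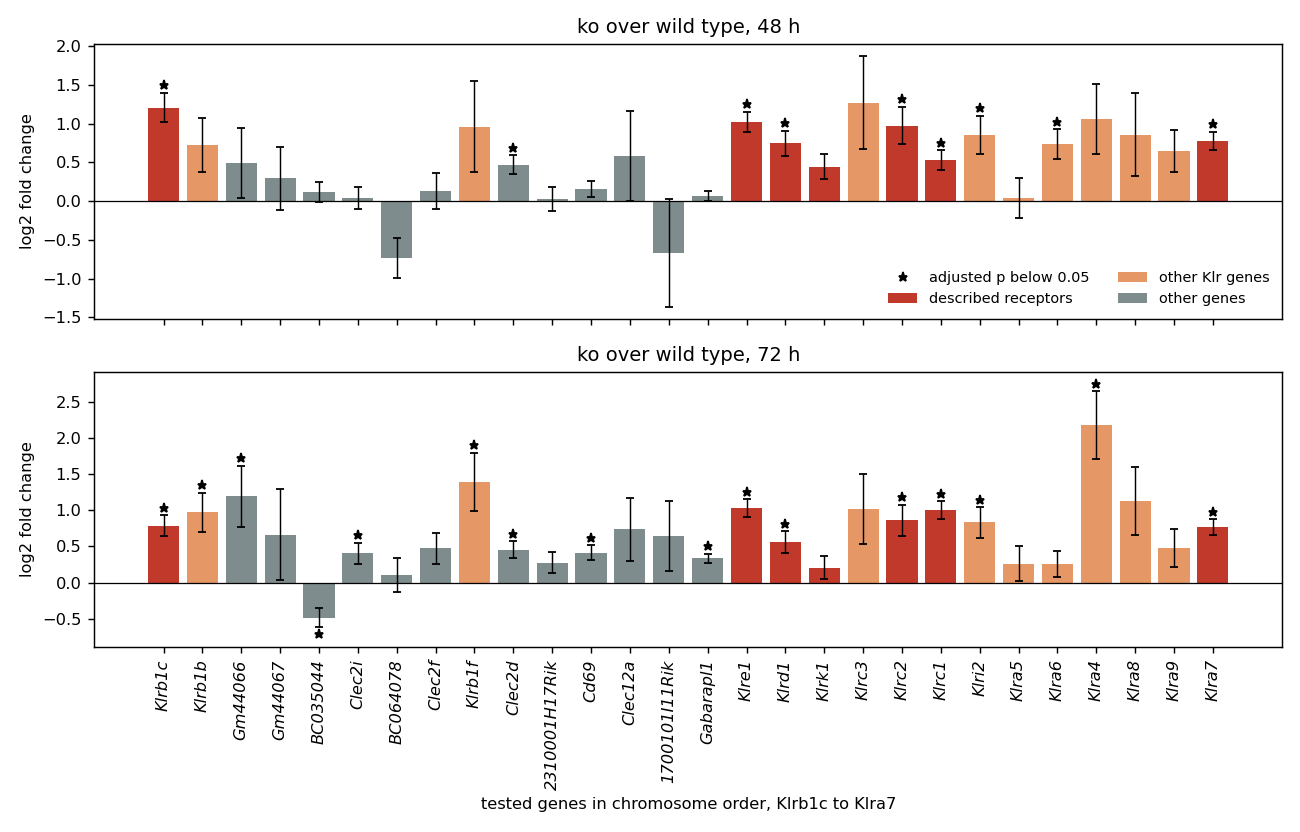
Log2 fold change, ko over wt, of the 28 tested genes from Klrb1c to Klra7 in chromosome order at 48 h (top) and 72 h (bottom), with the SE as bars and a star for an edgeR adjusted p below 0.05; colours mark the described receptors, other Klr genes and other genes. Stars stand over 9 genes at 48 h and 15 at 72 h, and under BC035044 at 72 h.

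Of the receptors' ligands, 8 of 13 in the table were tested. Transcripts of H60b, a ligand of NKG2D, were nearly absent from ko cells, with 0, 6, 6 and 4 counts in ko libraries at 48 h, against 149, 170, 144 and 173 counts in wt. At 72 h the ko libraries held 24, 30, 26 and 29 counts, against 258, 313, 228 and 256 counts in wt libraries. The groups were far apart at both times, with log2 fold changes of -5.16 (SE 0.28, edgeR adjusted p = 2.83e-12) and -3.20 (SE 0.20, edgeR adjusted p = 3.67e-11). The related H60c, too low to be tested, was at 0 CPM in all 4 ko libraries at 72 h and between 0.098 and 0.272 CPM in the wt libraries. Ulbp1, which encodes the NKG2D ligand MULT1, fell by 0.38 on the log2 scale in ko cells at 72 h (SE 0.07, edgeR adjusted p = 0.000311), to 44.8 ± 4.69 CPM against 63.5 ± 1.73 CPM in wt cells (SD, n = 4 each). At 48 h it had 0.18 (SE 0.07, edgeR adjusted p = 0.142).

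H2-T23, the gene for Qa-1 and so for the ligand of CD94 with NKG2A or NKG2C, averaged 272.8 ± 12.8 CPM in ko and 244.0 ± 10.2 CPM in wt cells at 72 h (SD, n = 4 each). It was higher by 0.29 (SE 0.05, edgeR adjusted p = 0.000173), after 0.12 (SE 0.05, edgeR adjusted p = 0.195) at 48 h. Cdh1, the gene for the KLRG1 ligand E-cadherin, averaged 1.12 ± 0.144 CPM in ko and 0.802 ± 0.227 CPM in wt cells at 72 h (SD, n = 4 each) and was not called (0.61, SE 0.35, edgeR adjusted p = 0.176). In all, 1 ligand gene was lower at 48 h, and 2 were higher and 2 lower at 72 h. The shares of all tested genes were 2.66% lower at 48 h, and 16.9% higher and 19.5% lower at 72 h.

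All 4 adaptor genes were higher in ko cells at 72 h, and 1 of 4 at 48 h, beside 16.9% and 4.41% of all tested genes. Tyrobp, for DAP12, which serves NKG2C and activating Ly49 receptors, averaged 3.03 ± 0.137 CPM in ko and 1.36 ± 0.121 CPM in wt cells at 72 h (SD, n = 4 each). Its log2 fold change was 1.27 (SE 0.19, edgeR adjusted p = 1.2e-05) at 72 h, and it had 0.64 (SE 0.21, edgeR adjusted p = 0.0692) at 48 h. Hcst, for the NKG2D adaptor DAP10, averaged 15.1 ± 1.59 CPM in ko and 11.1 ± 0.447 CPM in wt cells at 72 h (SD, n = 4 each), higher by 0.57 (SE 0.10, edgeR adjusted p = 0.000132), and had 0.28 (SE 0.11, edgeR adjusted p = 0.116) at 48 h. Fcer1g, whose chain serves NK1.1, was higher by 0.84 (SE 0.16, edgeR adjusted p = 0.00226) at 48 h and 0.47 (SE 0.16, edgeR adjusted p = 0.0218) at 72 h. Cd247 was higher by 0.28 at 72 h (SE 0.06, edgeR adjusted p = 0.000486). Without both libraries that stand apart, 2 of the 4 were called at 48 h, and with library size scaling 3 of 4 at 72 h.

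Of 23 genes for signalling below these receptors, 1 was called higher at 48 h, and 3 were higher and 6 lower at 72 h. Their median log2 fold change was -0.01 at 48 h and -0.06 at 72 h. Beside these counts, 4.41% of all tested genes were called higher and 2.66% lower at 48 h, and 16.9% higher and 19.5% lower at 72 h. Without both libraries that stand apart, 3 were higher and 2 lower at 48 h, and without ko 48 h replicate 4 alone 2 were higher and 1 lower. Lat2, a linker of activating receptors, was higher by 0.94 (SE 0.18, edgeR adjusted p = 0.00217) at 48 h and 0.79 (SE 0.15, edgeR adjusted p = 0.0003) at 72 h. Ptpn11, for the phosphatase SHP-2 that inhibitory receptors recruit, fell by 0.42 at 72 h (SE 0.05, edgeR adjusted p = 2.33e-06), and Sh2d2a, for the adaptor TSAd, fell by 0.48 (SE 0.06, edgeR adjusted p = 2.34e-06). Vav2, a guanine nucleotide exchange factor, fell by 0.42 at 72 h (SE 0.08, edgeR adjusted p = 0.000383).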

How the data were processed

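Poly-A RNA of mouse CD8 T cells was sequenced as stranded libraries from 100 ng of RNA, per the labels' protocols. The submitters' processing notes name the tools STAR 2.7, featureCounts and bcl2fastq 2.2.0, with GRCm38 as build. The authors deposited raw read counts per gene, whole numbers without normalization. Its annotation, strand setting and treatment of multiply matched reads are not known here, which makes genes with close relatives or overlaps uncertain.

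Groups came from the labels. CPM is a count over the library's total, scaled to a common size. One edgeR 4.0.16 fit (R 4.3.3) took all 16 libraries in 4 groups, with TMM scaling, filterByExpr at a minimum count of 10 and a robust, two-sided quasi-likelihood F test. The CPM values, ranges and overlaps in the text leave out the TMM factors. At 72 h these factors lay between 0.941 and 0.959 in ko and between 1.009 and 1.069 in wt libraries. CPM thus sets ko lower against wt at 72 h than the fit does. P-values were adjusted by Benjamini-Hochberg over all 15197 tested genes, with a threshold of 0.05, in 5 comparisons. The SE is the size of the log2 fold change over the root of F, and intervals are at 95%. The fit was tested on simulated data. Alternatives were library size and median-ratio scaling, DESeq2 1.42.0, no filter, a minimum count of 30, a fit of just the 2 groups compared, a block for the replicate number and each library left out; leaving out both libraries that stand apart and removing each library's trend with exon length were added after the data were seen. No pair of libraries agreed within sampling noise. Positions and exon lengths came from GENCODE M21, where 55154 of the gene identifiers were found.

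The receptors, gene lists and marker lists were chosen with earlier results of these data known. From each list the text names up to 4 genes with the smallest adjusted p in a genotype comparison and fixed partners of the receptors, and for each receptor the 3 expressed genes of highest correlation. Clec2d, Cd69, Gabarapl1, BC035044, Klra13-ps, H60c and the ratios were chosen after values were seen.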

Additional observations from a re-analysis of the deposited data

Results flagged for a closer look

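Of 32 groups of 4 libraries screened over the 8 receptor genes, 2 held a library far from the other 3, and chance alone flags about 1 in 20. Klrc1 in wt cells at 48 h had 16.6 CPM in replicate 2, while the other 3 libraries lay between 13.2 and 13.6 CPM. Klrb1c in ko cells at 72 h had 5.79 CPM in replicate 3, while the others lay between 7.21 and 7.36 CPM.

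Among the named genes around the receptors, 7 had a genotype effect, ko over wt on the log2 scale, that differed between 72 h and 48 h by the edgeR interaction test. That test called 5.61% of all tested genes. Most named genes were picked for a small adjusted p in a genotype comparison of these same data. The 7 therefore cannot be set against that share. The difference, 72 h minus 48 h, was 1.97 for H60b (-3.20 at 72 h against -5.16 at 48 h, edgeR adjusted p = 0.00417). Ulbp1, the other NKG2D ligand called, had -0.56 (-0.38 at 72 h against 0.18 at 48 h, edgeR adjusted p = 0.00246). In the signalling list Sh2d2a had -0.43 (-0.48 at 72 h against -0.05 at 48 h, edgeR adjusted p = 0.00377) and Ptpn11 -0.32 (-0.42 at 72 h against -0.10 at 48 h, edgeR adjusted p = 0.0131). The transcription factor genes Prdm1, with -0.64 (0.28 at 72 h against 0.92 at 48 h, edgeR adjusted p = 0.0145), and Eomes, with -0.47 (-0.46 at 72 h against 0.02 at 48 h, edgeR adjusted p = 0.00844), had smaller or lower effects at 72 h. Tigit, an inhibitory receptor gene, had 0.38 (0.55 at 72 h against 0.17 at 48 h, edgeR adjusted p = 0.0348).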

How the results depend on the processing

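Of 983 alternative values for the 8 receptor genes over 5 comparisons, 951 kept their direction and side of the threshold, 4 were no longer called, 7 became called and 21 changed sign. Counts of receptor genes called ran from 4 to 7 at 48 h, from 6 to 7 at 72 h and stayed at 7 in both time comparisons. For the interaction the count of 0 became 1, Klrc1, without a filter (0.46, edgeR adjusted p = 0.0122), without wt 72 h replicate 4 (range over single libraries left out 0 to 1) and without both libraries that stand apart. The sign changes were all in interactions near 0 that were not called. Klre1 reached -0.08 under library size scaling and ranged from -0.08 to 0.11 without single libraries. Klra7 reached 0.01 under median-ratio scaling and under DESeq2, 0.06 without both libraries that stand apart and -0.08 to 0.12 without single libraries. Klrc2 reached 0.18 without both and ranged from -0.25 to 0.10 without single libraries (0.10 without ko 48 h replicate 4), and Klrd1 ranged from -0.30 to 0.01 (0.01 without wt 72 h replicate 4). The cause was not tested. Library size scaling moved the median over all genes at 72 h to -0.142, against -0.015, and changed no receptor call.

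Replicate numbers gave a correlation over 0.1 in 9 of 24 same-numbered pairs of libraries. Differently numbered pairs were not compared, so this cannot decide whether libraries of the same number share an origin. With the replicate block, 6, 6, 7, 7 and 0 receptor genes were called in the 5 comparisons, and all genes called at 48 h numbered 918 against 1075. That count was 1658 in DESeq2, 507 without wt 48 h replicate 1, 1955 without ko 48 h replicate 4 and 2550 without both libraries that stand apart. For the interaction over all genes it ran from 446 to 1413, against 853.

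Klrg1 gave no value at a minimum count of 30 or with only the groups compared, and the interaction was not run with only the groups compared. Klrg1, Klrc3, Klri1 and H60c are limited by depth, and their misses show no absence of a difference.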

Other observations

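Other receptors that NK and CD8 T cells share moved both ways. Of 19 tested genes, at 48 h 4 were called higher and 2 lower without Batf3, and at 72 h 6 higher and 5 lower. Over the whole tested set, upward calls in ko cells made up 4.41% at 48 h and 16.9% at 72 h. Downward calls made up 2.66% at 48 h and 19.5% at 72 h. Whether this list differs from those shares was not tested. Cd7, an immunoglobulin superfamily receptor, averaged 28.8 ± 1.64 CPM in ko and 5.54 ± 0.78 CPM in wt cells at 72 h (SD, n = 4 each), a log2 fold change of 2.50 (SE 0.14, edgeR adjusted p = 6.32e-12), and 0.575 ± 0.0683 CPM in ko and 0.148 ± 0.118 CPM in wt cells at 48 h. Havcr2, the inhibitory receptor TIM-3, was higher by 0.76 (SE 0.11) at 48 h and 0.52 (SE 0.10) at 72 h, and Lag3, another inhibitory receptor, by 0.46 (SE 0.09) and 0.50 (SE 0.09). Slamf7, a homophilic receptor of the SLAM group, fell by 0.55 (SE 0.07) at 48 h and by 0.37 (SE 0.07) at 72 h.

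Of 22 transcription factor genes known to act in NK or effector T cells, 4 were higher and 3 lower at 48 h, and 6 higher and 9 lower at 72 h. Without ko 48 h replicate 4, 4 were higher and 7 lower at 48 h. Beside these counts, 4.41% of all tested genes were called higher and 2.66% lower at 48 h. At 72 h the shares were 16.9% higher and 19.5% lower. Prdm1, for Blimp-1, averaged 13.7 ± 2.21 CPM in ko and 7.41 ± 0.94 CPM in wt cells at 48 h (SD, n = 4 each), higher by 0.92 (SE 0.11, edgeR adjusted p = 7.31e-06). Id2 was higher by 0.39 (SE 0.08) at 48 h and 0.43 (SE 0.07) at 72 h, and Batf by 0.26 (SE 0.06) and 0.37 (SE 0.06). Gata3 fell by 0.79 (SE 0.13) at 48 h and by 0.91 (SE 0.13) at 72 h, and Ets1 by 0.39 (SE 0.07) and 0.41 (SE 0.07). Eomes, which with T-bet directs NK cell maturation, averaged 33.9 ± 2.1 CPM in ko and 50.8 ± 3.72 CPM in wt cells at 72 h (SD, n = 4 each) and fell by 0.46 (SE 0.07, edgeR adjusted p = 4.76e-05), while Tbx21, for T-bet, had 0.15 (SE 0.07, edgeR adjusted p = 0.235) at 48 h and -0.11 (SE 0.08, edgeR adjusted p = 0.265) at 72 h.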
